A study of Homo sapiens with 9 samples.

Results

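HUWE1 is a very large HECT-type ubiquitin ligase that attaches ubiquitin to many nuclear, cytosolic and mitochondrial proteins. Described here are the mRNAs of 8 genes whose proteins have been reported in the literature as HUWE1 substrates, HDAC2, POLB, CDC25A, MFN2, WIPI2, DDIT4, DVL1 and TIAM1. They were found by gene symbol in the deposited counts table, which held all 8 among its 11350 genes. This rule uses no measured value, but the 8 genes were chosen with earlier results of these data known. A substrate is bound by the ligase and ubiquitinated, which often sends it to the proteasome, so that its protein can change while its mRNA does not. RNA-seq measures only the mRNA, and protein levels were not analysed here.

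HCT116 is an established human colon carcinoma cell line. Its parental, unedited cells are called HUWE1-P. In HUWE1-WT cells the codon of the catalytic cysteine was replaced with one for cysteine again by knock-in at the endogenous gene, and in HUWE1-CS cells with one for serine. None was treated. The template of both edited lines held a stretch of HUWE1 coding sequence with that codon, then a P2A peptide and a gene for blasticidin resistance. HUWE1-P cells lack this inserted template. The edited lines were grown from single cells after puromycin and blasticidin selection. HUWE1-CS and HUWE1-WT cells differ by design in the residue (the CS/WT comparison). HUWE1-CS and HUWE1-P cells differ in the residue and the inserted template (CS/P), and HUWE1-WT and HUWE1-P cells in the inserted template (WT/P). Fold changes are of the first line over the second. How many clones stand behind the replicates of a line is not given in the sources used here, so a clone and its genotype cannot be told apart.

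Each line had 3 libraries of polyadenylated RNA, 9 in all, with 1610984 to 2060349 counts per library. The libraries are called P, WT and CS after their lines. Values below are counts scaled to a common library size (CPM) after TMM normalization, which sets each library to the bulk of its genes. The epithelial markers EPCAM, KRT8, KRT18, KRT19 and CDH1 had between 96 and 4122 counts in every library, while VIM, PTPRC, PECAM1 and ALB were not in the table and the fibroblast collagen COL1A1 had 15 to 47 counts. HUWE1 mRNA itself averaged 542.6 ± 19.8 CPM (SD) over the 3 P libraries, 468.5 ± 25.8 CPM in WT libraries and 335.7 ± 11.7 CPM in CS libraries. HUWE1 had a log2 fold change of −0.69 in the CS/P comparison (adjusted p = 1.06e-15, edgeR), −0.48 in the CS/WT comparison (adjusted p = 4.68e-09) and −0.21 in the WT/P comparison (adjusted p = 0.354). Its 95% confidence interval in the WT/P comparison was −0.34 to −0.09 (unadjusted p = 0.00112, edgeR). All WT libraries (452.6 to 498.3 CPM) lay below all P libraries (521.8 to 561.1 CPM) in HUWE1 mRNA. Counts per gene do not resolve the edited codon, so the residue in each line could not be checked from the table.

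Of the 8 substrate mRNAs, WIPI2 was higher and TIAM1 was lower in HUWE1-CS cells than in either control line. The other 6 did not pass the test in any comparison. WIPI2 was 1.31-fold higher than in HUWE1-P cells and 1.33-fold higher than in HUWE1-WT cells. TIAM1 was 1.41-fold and 1.45-fold lower, respectively. A gene was called when edgeR's quasi-likelihood test gave a p-value of at most 0.01 after Benjamini-Hochberg adjustment over all 11350 genes.

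The 2 called members made up 25% of the 8 in the CS/P comparison, where 17% of all genes were called, 8.46% higher and 8.58% lower. The same 2 of 8 were called in the CS/WT comparison, where 15.5% of all genes were called, 7.42% higher and 8.08% lower. The 2 comparisons share the HUWE1-CS libraries, so they are not independent of each other. In the WT/P comparison edgeR called 0 members and 0.0617% of all genes. No member had an unadjusted p below 0.05 there, against 629 of all genes, and DESeq2 called 0 members as well. A count of 2 among 8 genes is near these background shares.

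The sizes were small too. The median log2 fold change of the 8 members was 0.03 in the CS/P comparison and 0.00 in the CS/WT comparison, beside medians of −0.01 and −0.00 over all genes. Disregarding sign, the median size was 0.14 and 0.13 for the members and 0.22 for all genes in both comparisons. The means of the members placed them above 36.9% (POLB) to 93.6% (HDAC2) of all genes in level, and high genes are measured with less counting error than low ones. WIPI2 and TIAM1 were also the 2 members of 8 whose 3 HUWE1-CS libraries all lay beyond all 6 other libraries, which was true of 26.3% of all genes. In libraries made from many cells, fewer cells expressing a gene and less RNA per cell cannot be told apart.

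**Figure D1:**
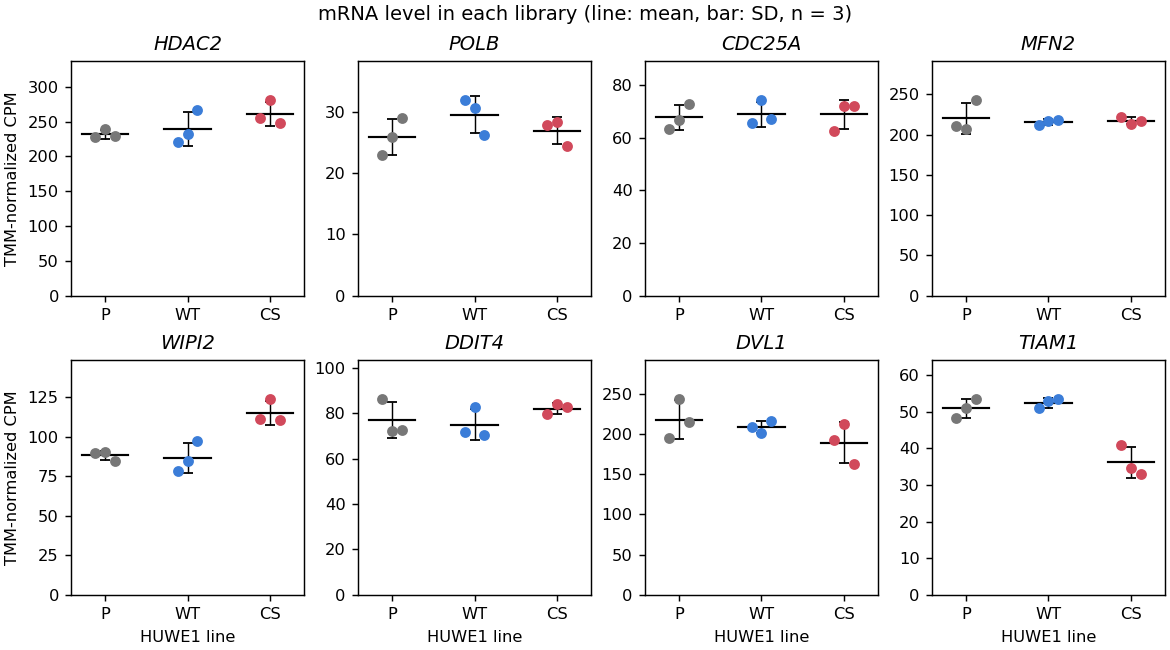
TMM-normalized CPM (y axis, from 0) of the 8 substrate mRNAs in the 3 lines (P, HUWE1-P; WT, HUWE1-WT; CS, HUWE1-CS). Points are libraries, lines are means and bars are SD of 3 libraries; only the WIPI2 points (above) and the TIAM1 points (below) of HUWE1-CS cells stand clear of all 6 control points.

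**Figure D2:**
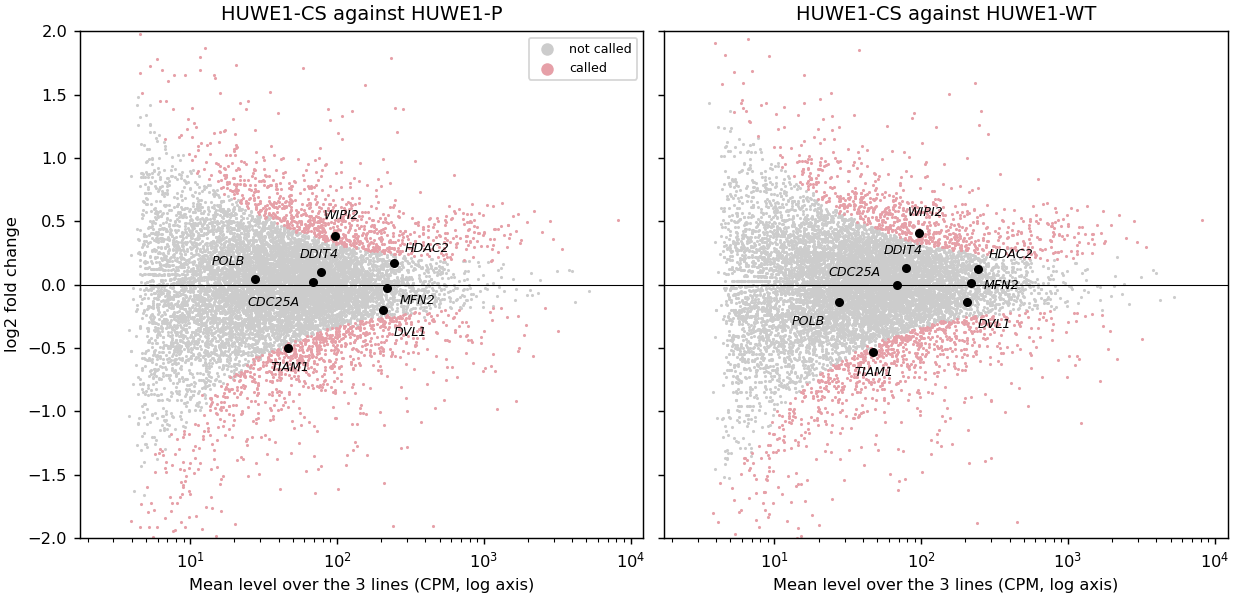
Each dot is one of 11350 genes, placed by its mean CPM over the 3 lines (x axis, log scale) and its log2 fold change (y axis), with called genes in pink and the 8 substrate mRNAs in black; 37 genes on the left and 36 on the right have absolute log2 fold changes above the plotted range. WIPI2 and TIAM1 lie at the inner edge of the called genes, and the other 6 lie among the genes not called.

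Compared per kilobase of one reference transcript each, DVL1 was the most abundant member in HUWE1-P cells with 66.0 ± 7.3 CPM per kb, followed by MFN2 with 50.0 ± 4.4 and DDIT4 with 44.1 ± 4.5 CPM per kb. HDAC2 had 23.8 ± 0.66, POLB 20.1 ± 2.3, WIPI2 19.8 ± 0.67, CDC25A 17.6 ± 1.2 and TIAM1 7.06 ± 0.35 CPM per kb. The single libraries of MFN2 and DDIT4 overlapped, as did those of POLB with WIPI2 and with CDC25A, so the order within these pairs is not larger than the spread. TIAM1 was the lowest in all 3 lines. In HUWE1-CS cells WIPI2 reached 25.9 ± 1.7 CPM per kb, above all 3 POLB libraries of the same line and overlapping HDAC2 (25.5 to 28.8 CPM per kb). These levels depend on the transcript length used, which was 9737 bases for HDAC2 and 1290 bases for POLB.

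HDAC2 and POLB act on chromatin and on damaged DNA. HDAC2 is a class I histone deacetylase that works with its close relative HDAC1 in the Sin3, NuRD and CoREST complexes. The gene lies on the minus strand of chromosome 6 (GRCh37 chr6:114254192-114332472). Its level was 227.2, 239.1 and 228.9 CPM in P libraries, 220.2, 232.3 and 266.3 CPM in WT libraries and 254.6, 280.7 and 247.9 CPM in CS libraries. Replicate 3 of HUWE1-WT cells lay within the range of HUWE1-CS cells, while the 3 HUWE1-P libraries lay below it. HDAC2 differed by a log2 fold change of 0.17 ± 0.074 (SE) against parental cells (adjusted p = 0.073) and 0.13 ± 0.074 against HUWE1-WT cells (adjusted p = 0.221). With a trend with transcript length removed from every library, HDAC2 was called in the CS/P comparison (log2 fold change 0.32, adjusted p = 0.000262) and not in the CS/WT comparison. HDAC2 shares 69 exon bases with an antisense gene that has no row in the table.

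POLB encodes DNA polymerase beta, which fills the gap of one or a few bases left during base excision repair. It lies on the plus strand of chromosome 8. POLB was the least counted member, with 37 to 60 counts in a library. Its level was 23.0, 25.8 and 28.9 CPM in P libraries, 31.9, 30.5 and 26.2 CPM in WT libraries and 27.9, 28.4 and 24.4 CPM in CS libraries. The 3 lines overlapped. For POLB the log2 fold change was 0.04 against parental cells and −0.14 against HUWE1-WT cells, with 95% confidence intervals of −0.31 to 0.40 and −0.49 to 0.22. The first interval holds and the second does not hold an increase as large as that of WIPI2 against parental cells (0.39).

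CDC25A is a phosphatase that removes inhibitory phosphates from cyclin-dependent kinases and drives entry into S phase and mitosis. It lies on the minus strand of chromosome 3 (GRCh37 chr3:48198636-48229907). Its level was 63.3, 66.8 and 72.8 CPM in P libraries, 65.5, 74.2 and 66.9 CPM in WT libraries and 62.3, 72.0 and 72.0 CPM in CS libraries. The ranges of the 3 lines covered each other almost fully. CDC25A had a log2 fold change of 0.02 (95% confidence interval −0.21 to 0.25) against parental cells and −0.00 (−0.24 to 0.24) against HUWE1-WT cells.

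MFN2 is a GTPase of the outer mitochondrial membrane that tethers and fuses mitochondria. It lies on the plus strand of chromosome 1 (GRCh37 chr1:12040238-12075268). Its level was 211.0, 207.1 and 242.8 CPM in P libraries, 211.5, 217.6 and 218.0 CPM in WT libraries and 222.5, 213.2 and 216.6 CPM in CS libraries. All 6 edited libraries fell inside the range of the parental ones. For MFN2 the fold change was, on the log2 scale, −0.02 (95% confidence interval −0.17 to 0.13) against parental cells and 0.01 (−0.14 to 0.16) against HUWE1-WT cells.

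WIPI2 and DDIT4 belong to autophagy and to its upstream control. WIPI2 is a WD-repeat protein that binds phosphatidylinositol 3-phosphate on forming autophagosomes and recruits ATG16L1, which brings the machinery that attaches lipid to LC3. The gene lies on the plus strand of chromosome 7 (GRCh37 chr7:5229827-5273471). Its level was 89.4, 90.4 and 84.8 CPM in P libraries and 78.2, 84.5 and 97.1 CPM in WT libraries. In CS libraries it was 111.0, 123.6 and 110.3 CPM. The lowest HUWE1-CS library was above the highest of the 6 control libraries. The log2 fold change of WIPI2 was 0.39 ± 0.10 (SE) against parental cells (adjusted p = 0.00186, edgeR) and 0.41 ± 0.10 against HUWE1-WT cells (adjusted p = 0.00111). Between the control lines it was −0.02 (95% confidence interval −0.23 to 0.19).

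The call for WIPI2 was lost with DESeq2, which gave an adjusted p of 0.0193 and 0.0136 in the 2 comparisons. Against HUWE1-P cells it was lost without replicate 2 of HUWE1-CS cells (0.0188) or replicate 3 of HUWE1-P cells (0.0177), and against HUWE1-WT cells without replicate 1 of HUWE1-WT cells (0.0175) or replicate 2 of HUWE1-CS cells (0.0129).

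DDIT4, also called REDD1, is a stress-induced inhibitor of the kinase complex mTORC1 that acts through the TSC proteins. It lies on the plus strand of chromosome 10 (GRCh37 chr10:74033678-74035794). Its level was 86.3, 72.4 and 72.8 CPM in P libraries, 71.8, 82.9 and 70.4 CPM in WT libraries and 79.5, 83.9 and 83.0 CPM in CS libraries. The HUWE1-CS libraries lay inside the range of HUWE1-P cells, whose replicate 1 was the highest of all 9. DDIT4 had a log2 fold change of 0.10 (95% confidence interval −0.12 to 0.32) against parental cells and 0.13 (−0.09 to 0.35) against HUWE1-WT cells.

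DVL1 and TIAM1 carry signals from the cell surface. DVL1 is a Dishevelled scaffold that passes the Wnt signal from Frizzled receptors to the complex that degrades beta-catenin. It lies on the minus strand of chromosome 1 (GRCh37 chr1:1270656-1284798). Its level was 195.5, 243.6 and 214.9 CPM in P libraries, 209.2, 201.2 and 216.3 CPM in WT libraries and 192.9, 212.7 and 162.6 CPM in CS libraries. Replicate 3 of HUWE1-CS cells was the lowest of all libraries, and the lines overlapped. The log2 fold change of DVL1 was −0.20 ± 0.081 (SE) against parental cells (adjusted p = 0.0492, edgeR) and −0.14 ± 0.082 against HUWE1-WT cells (adjusted p = 0.215). It would be called in the first comparison at a threshold of 0.05. Without any one library its log2 fold change against parental cells was between −0.29 and −0.10. DVL1 shares 39 exon bases with TAS1R3, a gene on the other strand that has no row in the table.

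TIAM1 is a guanine nucleotide exchange factor that activates the GTPase Rac at cell junctions and at the leading edge. It lies on the minus strand of chromosome 21 (GRCh37 chr21:32490734-32932290). Its level was 48.4, 51.1 and 53.5 CPM in P libraries and 50.99, 52.9 and 53.5 CPM in WT libraries. In CS libraries it was 40.9, 34.6 and 33.1 CPM. The highest HUWE1-CS library was below the lowest of the 6 control libraries, and the 6 control libraries lay close together. The log2 fold change of TIAM1 was −0.50 ± 0.14 (SE) against parental cells (adjusted p = 0.00507, edgeR) and −0.54 ± 0.14 against HUWE1-WT cells (adjusted p = 0.00276). Between the control lines it was 0.04 (95% confidence interval −0.22 to 0.30).

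TIAM1 had 57 to 111 counts in a library. Its call was lost with DESeq2 (adjusted p = 0.0476 and 0.0316), with a transcript-length trend removed (adjusted p = 0.0335 in the CS/P comparison, and just above the threshold in the CS/WT comparison) and in 4 of the 9 fits without 1 library in each comparison. Those libraries were replicates 2 and 3 of HUWE1-CS cells and of the control line compared, with an adjusted p of up to 0.0390 and 0.0255 in the 2 comparisons.

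**Figure D3:**
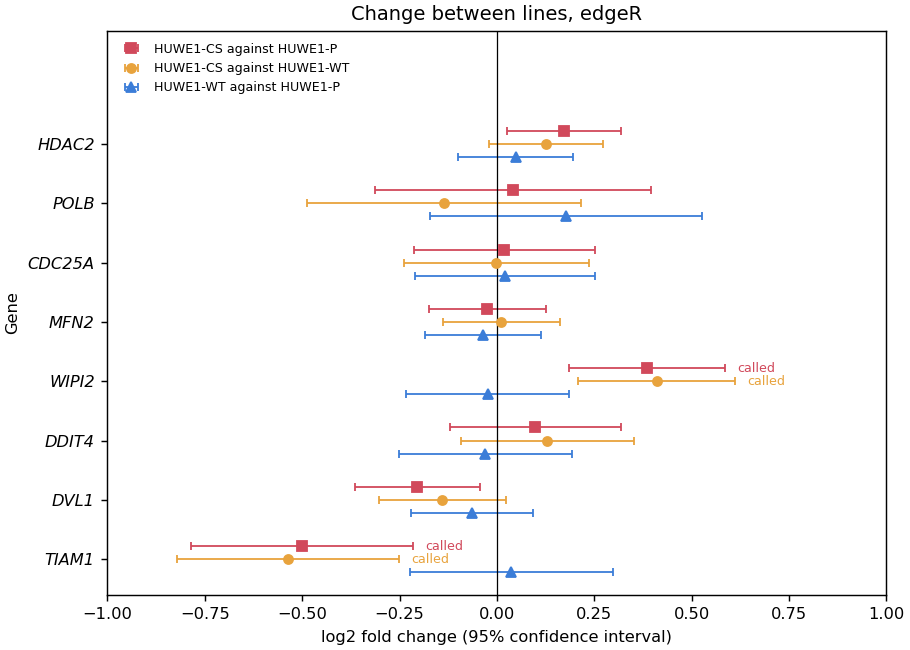
Log2 fold change with its 95% confidence interval (x axis) for each substrate mRNA (y axis) in HUWE1-CS against HUWE1-P (squares), HUWE1-CS against HUWE1-WT (circles) and the WT/P comparison (triangles). WIPI2 near 0.4 and TIAM1 near −0.5 carry the label called in both HUWE1-CS comparisons; the intervals between the control lines all include 0.

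The promoter sequences of the 2 called genes are shown because their mRNAs moved in opposite directions in the same cells. Both are the 200 bases from 250 to 51 bases before a RefSeq transcription start, read 5′ to 3′ on the strand of the gene. They come from RefSeq promoter sequence that was matched exactly to GRCh37, with the start nearest the annotated 5′ end of the gene. For TIAM1 this start (chr21:32931400) and the stretch lie inside the annotated gene, whose 5′ end is at 32932290. Capitals mark the letters of a GC box (GGGCGG) or of a CCAAT box (CCAAT) on either strand.
WIPI2, plus strand, chr7:5229614-5229813: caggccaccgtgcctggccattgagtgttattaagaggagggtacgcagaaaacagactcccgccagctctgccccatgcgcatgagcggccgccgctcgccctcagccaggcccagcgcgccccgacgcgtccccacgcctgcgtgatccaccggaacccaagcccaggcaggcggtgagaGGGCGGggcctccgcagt
TIAM1, minus strand, chr21:32931451-32931650: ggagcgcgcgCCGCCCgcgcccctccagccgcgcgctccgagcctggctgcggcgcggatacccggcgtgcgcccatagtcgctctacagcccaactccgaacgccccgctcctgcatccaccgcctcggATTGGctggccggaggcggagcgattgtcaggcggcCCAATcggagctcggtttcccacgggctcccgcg
The WIPI2 stretch held 1 GC box and 0 CCAAT boxes, and the TIAM1 stretch held 1 GC box and 2 CCAAT boxes. Over the same window of 35116 RefSeq promoters, 35.0% held a GC box and 27.4% a CCAAT box. Neither stretch held an E-box (CACGTG, in 4.51% of promoters), an E2F motif (TTTGGCGC or TTTCGCGC, 0.740%) or a cAMP response element (TGACGTCA, 0.951%), with both strands searched. The antisense gene TIAM1-AS1, listed as LOC150051, begins inside the TIAM1 stretch and runs the other way (GRCh37 chr21:32931558-32932800). It shares 0 exon bases with TIAM1. It had 20, 22 and 22 counts in replicate 1 of P, WT and CS libraries, and 2 to 13 counts in the other libraries. TIAM1-AS1 was not called in any comparison. By edgeR its log2 fold change was −0.54 in the CS/P comparison (95% confidence interval −1.43 to 0.36, adjusted p = 0.404). It was −0.12 in the CS/WT comparison (−1.06 to 0.83, adjusted p = 0.898) and −0.42 in the WT/P comparison (−1.30 to 0.46, adjusted p = 0.977).

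The genes around the 2 called members were counted as well. Of the 20 nearest genes in the table to WIPI2, 1 was called higher and 2 lower in the CS/P comparison, with a median log2 fold change of −0.01, and 0 higher and 1 lower in the CS/WT comparison. Of the 20 nearest to TIAM1, 2 were called higher and 1 lower in the CS/P comparison, with a median of 0.01, and 2 higher and 0 lower in the CS/WT comparison. These counts stand beside 17% and 15.5% of all genes called, so the 3 of 20 in the CS/P comparison are near the share of all genes. Over the 9 libraries, the genes whose log2 CPM was most like that of WIPI2 were RPL34 (Pearson r = 0.9754), BRIX1 (0.9752) and FCHO2 (0.974). Those most like TIAM1 were CDKN3 (0.982), ZNF532 (0.980) and SHTN1 (0.980). RPL34, CDKN3 and ZNF532 were called in both HUWE1-CS comparisons, while BRIX1, FCHO2 and SHTN1 were called in neither. These correlations are the highest over all other genes, given as a description, and all rest on the same 9 libraries and their 3 lines.

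Each substrate except TIAM1 was next set beside its paralogues, 14 of 15 of which were in the table. HDAC1 and WIPI1 were higher and CDC25B was lower in HUWE1-CS than in parental cells, and the other 11 paralogues were not called. That is 21.4% of the 14, where 17% of all genes were called. Against HUWE1-WT cells HDAC1 and CDC25B were called, 14.3% of the 14, where 15.5% of all genes were called. HDAC1 was 294.2, 296.3 and 297.3 CPM in P libraries, 299.0, 309.7 and 304.7 CPM in WT libraries and 424.3, 386.8 and 435.5 CPM in CS libraries. The control libraries of HDAC1 lay within a narrow band well below the HUWE1-CS libraries. Its log2 fold change was 0.49 ± 0.066 (SE) against parental cells (adjusted p = 3.25e-09, edgeR) and 0.45 ± 0.066 against HUWE1-WT cells (adjusted p = 5.03e-08), and it was called while HDAC2, its partner in the same complexes, was not.

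CDC25B, the sister phosphatase of CDC25A, was 268.1, 308.1 and 261.1 CPM in P libraries, 318.1, 273.8 and 286.7 CPM in WT libraries and 200.6, 234.2 and 220.0 CPM in CS libraries. No HUWE1-CS library of CDC25B reached a control library. Its log2 fold change was −0.35 ± 0.075 against parental cells (adjusted p = 1.17e-04) and −0.42 ± 0.075 against HUWE1-WT cells (adjusted p = 4.09e-06). CDC25C had 15 to 35 counts in a library and log2 fold changes of −0.65 (adjusted p = 0.0595) and −0.78 (adjusted p = 0.0191), which did not pass.

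WIPI1, a WD-repeat relative of WIPI2, was 10.6, 14.6 and 11.1 CPM in P libraries, 15.1, 10.9 and 18.6 CPM in WT libraries and 27.3, 21.0 and 16.3 CPM in CS libraries. The lowest HUWE1-CS library lay below the highest HUWE1-WT library. Its log2 fold change was 0.83 ± 0.24 against parental cells (adjusted p = 0.00549) and 0.54 ± 0.23 against HUWE1-WT cells (adjusted p = 0.0787), and the first call was lost with DESeq2 (adjusted p = 0.0505), with limma-voom (0.0101), with the transcript-length trend removed (0.0105, and 0.0127 with the replicate block added) and in 4 of the 9 fits without 1 library (up to 0.0891, without replicate 1 of HUWE1-CS cells). WDR45 had a log2 fold change of 0.54 (adjusted p = 0.0546) and WDR45B of −0.11 (adjusted p = 0.368) against parental cells.

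The remaining paralogues had log2 fold changes against parental cells between −0.15 (MFN1) and 0.72 (DDIT4L, with 6 to 15 counts in a library). Among them, POLL, another gap-filling polymerase of the family of POLB, had 0.47 (adjusted p = 0.0265) and DVL3 0.20 (adjusted p = 0.18). In the WT/P comparison edgeR and DESeq2 called 0 of the 14 paralogues, and 0 had an unadjusted p below 0.05 by edgeR.

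**Figure D4:**
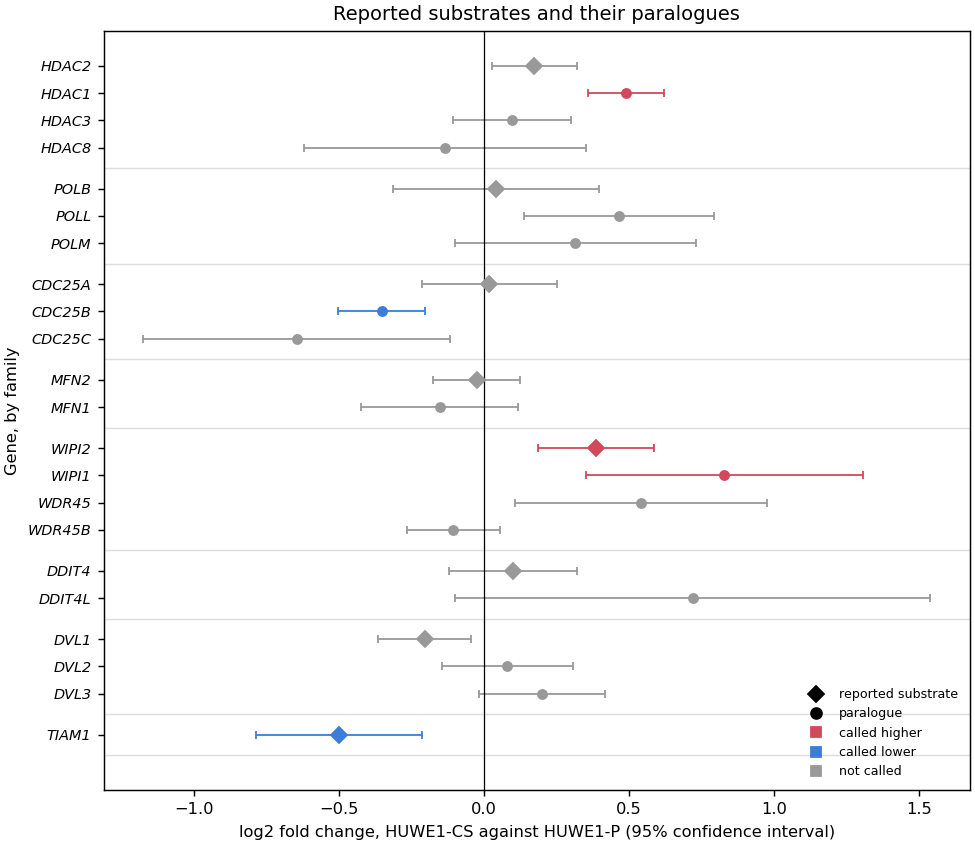
Log2 fold change of the CS/P comparison with its 95% confidence interval (x axis) for each substrate (diamonds) and its paralogues (circles), grouped by family on the y axis. Red marks genes called higher, blue genes called lower and grey genes not called; HDAC1, WIPI1 and CDC25B are the called paralogues.

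To compare a paralogue with its member directly, the ratio of their CPM was taken in each library, and the 3 HUWE1-CS libraries were set against the 6 control libraries by a two-sided exact permutation test. This exact test cannot go below p = 0.0238, and these 14 ratios were chosen after the values had been seen. That p was reached by 4 ratios, each with an adjusted p of 0.0833 over the 14, so that none passed 0.05 after adjustment. Whether a ratio at this floor passes depends on how many of the 14 lie at or near it, whatever the size of its difference. The adjusted p therefore does not decide whether these 4 ratios differ. HDAC1 to HDAC2 was 1.14 to 1.36 in the control libraries and 1.38 to 1.76 in HUWE1-CS libraries. CDC25B to CDC25A was 3.59 to 4.86 in control libraries and 3.06 to 3.25 in HUWE1-CS libraries, and CDC25C to CDC25A was 0.202 to 0.257 and 0.121 to 0.162. WDR45B to WIPI2 was 2.06 to 2.71 in control libraries and 1.49 to 1.67 in HUWE1-CS libraries.

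The pathways of the members were then described by lists of their other genes, typed from general knowledge. Beyond the 3 genes of each list with the smallest p in the CS/P comparison, further called genes are named to complete the counts. In the WT/P comparison edgeR called 0 of the 189 list genes in the table, of which 8 had an unadjusted p below 0.05, and DESeq2 called 0 of all genes. By DESeq2, 20 of the 33 CS/P calls among paralogues and list genes were lost (adjusted p of 0.0107 to 0.0631), those of ARHGEF7, ATG16L1, ATG9A, CCNA2, CCNF, DNTTIP1, EIF4EBP2, FEN1, FIS1, MGMT, MTA1, MTFP1, MUTYH, PCNA, PIK3C3, RAC3, RRAGD, SESN2, TRIO and WIPI1. Of the 31 CS/WT calls, 10 were lost (0.0121 to 0.0594), those of ATG9A, CCNF, FIS1, GATAD2A, MARCH5, MGMT, MTA1, PARD6B, PIK3C3 and SAP30. With the transcript-length trend removed the CS/P calls of CCNF, DNTTIP1, FIS1, PCNA, TRIO and WIPI1 and the CS/WT calls of FIS1, GATAD2A and MARCH5 were lost. Leaving out 1 library ended 19 of the CS/P calls in at least 1 fit, namely those lost by DESeq2 except ATG9A, with 16, 9 and 10 lost without CS replicates 1, 2 and 3, 12, 7 and 11 without P replicates 1, 2 and 3, and 1 without WT replicate 2. It ended 12 of the CS/WT calls, those lost by DESeq2 and those of BECN1 and PARP2, with 8, 3 and 6 lost without CS replicates 1, 2 and 3 and 6, 3 and 6 without WT replicates 1, 2 and 3. No list was tested as a set, and the share of each is to be read beside the 17% and 15.5% of all genes called in the 2 HUWE1-CS comparisons.

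Of 20 other reported HUWE1 substrates, 16 were in the table and 3 of them were called in each HUWE1-CS comparison (18.8%), 2 higher and 1 lower in CS/P and 1 higher and 2 lower in CS/WT. HK2, the hexokinase that starts glycolysis in many tumour cells, was 57.4 CPM in HUWE1-CS and 119.1 CPM in P libraries on average (log2 fold change −1.06, adjusted p = 1.07e-13). MGMT, which repairs alkylated guanine, was higher (0.96, adjusted p = 0.00166), as was the replication clamp PCNA (0.24, adjusted p = 0.0054). MGMT had 10 to 47 counts in a library, and its lowest CS library (15.9 CPM) lay below its highest WT library (16.4 CPM). Against HUWE1-WT cells MGMT (1.10) was called higher and HK2 (−1.03) and MYC (−0.31, adjusted p = 1.37e-04) lower, while PCNA was not called (0.21, adjusted p = 0.0178). The CS/P call of PCNA was also lost without any 1 of P replicates 2 and 3 and CS replicates 1 and 2 (adjusted p of 0.0155 to 0.0522), by total counts (0.0111) and with the transcript-length trend removed, where its log2 fold change was 0.12 (adjusted p = 0.151). MYC in turn was not called against parental cells (−0.16, adjusted p = 0.0679). MCL1 was not called in either comparison (−0.10 and 0.01).

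Of 23 other genes of the HDAC1/2 complexes, 4 were called higher and 1 lower against parental cells (21.7%), and 3 higher and 3 lower against HUWE1-WT cells (26.1%). Beside HDAC1, the Sin3 subunit SAP18 was higher (0.42, adjusted p = 4.74e-06, and 0.34, adjusted p = 2.75e-04), as was the NuRD subunit MTA1 (0.28 and 0.31). DNTTIP1 was called higher only against parental cells (0.49, and 0.31 with adjusted p = 0.0753 against HUWE1-WT cells). The NuRD remodeller CHD3 was 45.8 CPM in HUWE1-CS, 80.8 CPM in HUWE1-P and 78.9 CPM in WT libraries (log2 fold changes −0.82 and −0.78). SAP30 and GATAD2A were called lower against HUWE1-WT cells (−1.04 and −0.29) and had −0.93 and −0.24 against parental cells.

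Of 21 other base excision repair genes, 3 were called in each comparison (14.3%). MUTYH, a glycosylase that removes adenine opposite oxidized guanine, was higher (0.63, adjusted p = 9.46e-04, and 0.72, adjusted p = 1.89e-04). PARP2, a sensor of DNA strand breaks, was lower (−0.65, adjusted p = 1.45e-05, and −0.56, adjusted p = 3.28e-04). The flap nuclease FEN1 was lower against parental cells (−0.29, adjusted p = 0.00244) with −0.24 (adjusted p = 0.0163) against HUWE1-WT cells, and the ligase LIG1 was higher against HUWE1-WT cells (0.42) with 0.27 (adjusted p = 0.0161) against parental cells. Of the genes for mitochondrial fusion and fission, 2 of 19 were called in each comparison (10.5%). The fission adaptor FIS1 was higher in both (0.44 and 0.44, adjusted p = 0.00497 and 0.00551), which was lost with DESeq2 and with a length trend removed (0.26, adjusted p = 0.119, and 0.29, adjusted p = 0.0793). MTFP1 was lower against parental cells (−0.51, adjusted p = 0.00711) and the ubiquitin ligase gene MARCH5 against HUWE1-WT cells (−0.41, adjusted p = 0.00764).

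Of 23 genes of mTORC1 and its regulators, 21 were in the table, and 4 (19%) and 3 (14.3%) of these were called. SESN1, a sestrin that restrains mTORC1, was 36.2 CPM in HUWE1-CS, 13.2 CPM in HUWE1-P and 16.3 CPM in WT libraries (log2 fold changes 1.43 and 1.15). SESN2 was higher against parental cells (0.67, adjusted p = 0.00366) with 0.33 (adjusted p = 0.179) against HUWE1-WT cells. The translation repressor EIF4EBP2 was higher in both (0.30 and 0.47), and the Rag GTPase gene RRAGD was lower in both (−0.79 and −1.004). DDIT4, the member of this pathway, was not called.

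Of 21 genes that regulate or accompany CDC25 and CDK phosphorylation, 20 were in the table, and 1 was called higher and 4 lower in each comparison (25%). CCNE2, a cyclin of S phase entry, was 13.2 CPM in HUWE1-CS, 37.0 CPM in HUWE1-P and 38.5 CPM in WT libraries (log2 fold changes −1.50 and −1.54). The others lower were CDC25B, CCNA2 (−0.32 and −0.38) and CCNF (−0.33 and −0.38). CDK6, a kinase of the G1 phase, was higher (0.58, adjusted p = 2.87e-07, and 0.67, adjusted p = 1.22e-08). CHEK1 and WEE1, kinases that restrain CDC25 proteins or CDKs, were not called in either comparison (−0.13 and −0.09 against parental cells).

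The 26 other genes of autophagosome formation included 6 called against parental cells (23.1%), 2 higher and 4 lower, and 5 against HUWE1-WT cells (19.2%), 2 higher and 3 lower. ATG12, a ubiquitin-like protein that is joined to ATG5, was 86.6 CPM in HUWE1-CS, 168.0 CPM in HUWE1-P and 182.8 CPM in WT libraries (log2 fold changes −0.95 and −1.08, adjusted p = 3.69e-15 and 4.43e-18). RB1CC1, the scaffold of the ULK1 kinase complex, was lower (−0.86 and −0.74), as was the lipid scramblase gene ATG9A (−0.41 and −0.37). ATG16L1, the direct partner of WIPI2, was lower against parental cells (−0.48, adjusted p = 0.00752) with −0.22 (adjusted p = 0.307) against HUWE1-WT cells. PIK3C3, the kinase that makes the lipid WIPI2 binds, was higher in both (0.59, adjusted p = 0.00577, and 0.70, adjusted p = 0.00144). BECN1, a subunit of the PIK3C3 complex, was called only against HUWE1-WT cells (0.56, and 0.19 with adjusted p = 0.27 against parental cells).

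Among Wnt receptors and the destruction complex, 1 of 22 genes in the table was called in each comparison (4.55%), and 0 were lower. It was RNF43, a ubiquitin ligase that removes Frizzled receptors from the cell surface, with 89.6, 77.1 and 86.5 CPM in CS libraries against 40.5 to 52.2 CPM in the 6 control libraries (log2 fold changes 0.86 and 0.87, adjusted p = 1.66e-08 and 1.72e-08). With a length trend removed, 5 genes of this list were called against parental cells and 2 against HUWE1-WT cells. In that setting 1889 and 1773 of all 11350 genes were called in the 2 comparisons. Of 25 genes of Rac activation and its effectors, 21 were in the table, with 1 higher and 3 lower against parental cells (19%) and 1 higher and 2 lower against HUWE1-WT cells (14.3%). The scaffold IQGAP1 (−0.41 and −0.35) and the GTPase RAC3 (−0.39 and −0.52) were lower in both. TRIO, another exchange factor for Rac, was called lower against parental cells (−0.49, adjusted p = 0.00201) with −0.25 (adjusted p = 0.173) against HUWE1-WT cells. The call of TRIO was lost with the transcript-length trend removed (−0.32, adjusted p = 0.0445) and without P replicate 1, P replicate 3 or CS replicate 2 (adjusted p of 0.011 to 0.0497). ARHGEF7 was called higher against parental cells (0.38) and PARD6B against HUWE1-WT cells (0.63). RAC1, the main GTPase that TIAM1 activates, was not called (−0.05 and −0.08).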

How the data were processed

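RNA-seq libraries of 3 lines of HCT116 cells, 3 libraries each, were grouped by the sample labels. The authors removed adapters (Skewer), aligned the reads to hg19 by STAR (version 2.5.4 in the submitters' processing notes, which also name bcl2fastq 2.20 and edgeR 3.26.8) and deposited raw read counts per gene by Entrez identifier. The counting tool, its annotation and its use of strand are not given in the sources used here. The authors also deposited tables of their own comparisons (log2 fold change, mean log2 CPM, F, p-value and FDR), which were not used.

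The 8 members and all gene lists were chosen with earlier results of these data known. Genes were named by a rule: all 8 members, HUWE1, every paralogue in the table, the 3 genes of each list with the smallest p among genes called in HUWE1-CS relative to parental cells, and the 3 genes most correlated with each called member. A gene of the list of other reported substrates is not reported here and was left out of the counts of that list.

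Counts were normalized by TMM and tested over all 9 libraries with line as the only term (edgeR 4.0.16 in R 4.3.3, glmQLFit with legacy = TRUE, then glmQLFTest). No gene was removed. Alternatives used DESeq2 1.42.0 and limma 3.58.1. Genes without a symbol, 147 with 0.505% of the counts, were kept. At these depths 3 counts correspond to 1.45 to 1.86 CPM. Replicates differed beyond sampling noise (chi-square per degree of freedom 1.16 to 1.65). P-values measure the spread between these libraries, which are described as biological replicates from distinct samples; whether each was a separate culture is not given in the sources used here. Positions came from GENCODE on GRCh37 and promoters from RefSeq. Ratios were tested with SciPy 1.17.1. The fits were tested on counts simulated from edgeR's own estimates of level and spread. Such counts follow that model by construction, so they do not show how well it describes these libraries.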

Additional observations from a re-analysis of the deposited data

How the results depend on the processing

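Against HUWE1-P and HUWE1-WT cells, respectively, HUWE1-CS cells had 1934 and 1759 called genes, with 1088 and 998 by DESeq2, 2999 and 2774 at an FDR of 0.05, and 1151 and 1064 with a minimum absolute log2 fold change of 0.5 added. Without 1 library these counts were 1466 to 2018 and 1373 to 1766. For HUWE1-WT against HUWE1-P cells the count was 7, with 0 by DESeq2, 1 in a robust fit, 4 with at least 10 counts in every library, 1 without mitochondrially encoded genes, 13 at an FDR of 0.05, 4 with the fold limit and 1 to 19 without 1 library. The 2 called members became 0 and 0 by DESeq2, 0 and 1 with the fold limit, and 0 to 2 in both comparisons without 1 library. With the transcript-length trend removed, 2 members were called against HUWE1-P cells (HDAC2 and WIPI2, no longer TIAM1) and 1 against HUWE1-WT cells, with or without the replicate block. The cause of these differences was not tested.

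No pairing by replicate number was used in the main fit. Deviations from the group means correlated at −0.02 to 0.06 for libraries with the same number and −0.07 to 0.03 for those with different numbers. Whether libraries with the same number form pairs was not tested. With the replicate block, 2021, 1835 and 7 genes were called, beside 1934, 1759 and 7 without it. The members called were 2, 2 and 0 either way.

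Signs changed for members close to 0 on the log2 scale. With the length trend removed, without and with the replicate block, POLB in the CS/P comparison was −0.0768 and −0.0789, MFN2 0.0232 and 0.0263, and CDC25A in the CS/WT comparison 0.0327 and 0.0324. By total counts CDC25A was −0.0051 (CS/P) and MFN2 −0.0156 (CS/WT). CDC25A was 0.0037 with RLE size factors and 0.004 by DESeq2 (CS/WT). Without 1 library, POLB was −0.0308 to 0.136, MFN2 −0.069 to 0.0568 and CDC25A −0.023 to 0.0839 in the CS/P comparison. In the CS/WT comparison MFN2 was −0.0056 to 0.0321 and CDC25A −0.0367 to 0.0636. In the WT/P comparison HDAC2 was −0.0338 to 0.104, MFN2 −0.0801 to 0.0456, DDIT4 −0.108 to 0.0501, CDC25A −0.0363 to 0.0818, WIPI2 −0.112 to 0.0427 and DVL1 −0.131 to 0.02. WIPI2 and TIAM1 kept their signs in all 22 alternatives of both HUWE1-CS comparisons, with WIPI2 between 0.34 and 0.50 and TIAM1 between −0.63 and −0.39.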
